A study of Mus musculus with 6 samples.

Results

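Neurogranin, calmodulin, the calcium/calmodulin-dependent protein kinases (CaM kinases) and calcineurin were followed in the cortical RNA of microglia-depleted and control mice. The set held 9 genes, Nrgn, Calm2, Calm3, Camk2a, Camk2b, Camk2g, Camk4, Pcp4l1 and Ppp3ca, chosen by symbol among the 23366 genes of the table. All 9 passed the minimum mean of 0.5 FPKM, the fragment count of a gene divided by its transcript length and the library size, and 14385 genes did so in all. Nrgn had already been singled out by the study on these same mice, so its difference between the groups is not an independent result.

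The control group held 3 littermates (A1, A2 and A3) that carried the CX3CR1-CreERT2+/– allele without iDTR. The depleted group held 3 mice (A4, A5 and A6) that carried CX3CR1-CreERT2+/– and iDTR+/–, the Cre-dependent diphtheria toxin receptor, and they were taken 10 days after depletion. Per the study, microglia had repopulated the brain by that day. The name depleted therefore stands for the treatment and not for a cortex without microglia. All mice were adults of the C57BL/6 background, age- and sex-matched per the study's methods, both genotypes had received tamoxifen, and diphtheria toxin then killed the cells in which the receptor had been switched on. Cre is driven by the CX3CR1 promoter, which is active in microglia and also in other CX3CR1+ cells. The labels name brain cortex as the tissue, and the study's text places it in the frontal cortex. Per-mouse ages, litters and batches are not given in the sources used here, nor is it clear from them whether the control mice received the toxin.

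Calmodulin is the small calcium-binding protein through which calcium entering a dendritic spine acts on enzymes. Neurogranin, an abundant postsynaptic protein of forebrain excitatory neurons, holds calmodulin at low calcium through its IQ motif and releases it when calcium rises. Calcium-loaded calmodulin then activates CaM kinase II, the kinase required for long-term potentiation, and calcineurin, the phosphatase linked to long-term depression, while CaM kinase IV carries the signal to CREB in the nucleus.

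Calm2 and Calm3 are shown first, because the measurement depends on reads being assigned to the correct copy. In mouse, Calm2 (GRCm38, chr17:87433412-87446935, minus strand) and Calm3 (chr7:16915379-16924114, minus strand) encode the same protein. Their coding sequences of 450 bases translated identically over all 150 codons, the stop codon included, although only 82.7% of the bases were identical. The first 75 coding bases, 5′ to 3′ from the start codon in GENCODE M21, are given with capitals at the 10 positions where the 2 genes differ.
Calm2: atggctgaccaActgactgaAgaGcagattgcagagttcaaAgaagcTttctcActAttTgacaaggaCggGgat
Calm3: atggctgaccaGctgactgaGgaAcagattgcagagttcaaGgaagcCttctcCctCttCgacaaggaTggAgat
The longest run of coding bases that they shared was 17 bases, shorter than the 75-base reads. Over the whole transcripts 2.88% of the 75-base windows of Calm2 also occurred in Gm7308 or Gm15720 and 1.13% of those of Calm3 in Gm5881. For these windows the assignment of reads is uncertain. The other 7 genes shared no such window with any gene.

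Nrgn (GRCm38, chr9:37544492-37552904, minus strand) and Pcp4l1 (chr1:171173262-171196268, minus strand) are the 2 small IQ-motif peptides of the set, and Pcp4l1 is the relative of Pcp4, also called PEP-19. The stretch that encodes the IQ motif is printed below from GENCODE M21 beside that of Pcp4. Capitals mark the codons of the isoleucine and glutamine that give the motif its name.
Nrgn: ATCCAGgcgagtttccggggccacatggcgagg
Pcp4l1: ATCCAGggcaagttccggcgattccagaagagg
Pcp4: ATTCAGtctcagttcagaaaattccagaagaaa
These bases lie at 97 to 129 of the 237 coding bases of Nrgn and at 154 to 186 of the 207 coding bases of Pcp4l1, counted from 1 at the start codon. No other copy of the motif was found in either coding sequence.

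The table gave FPKM values that the authors had scaled between libraries. Depth read from the spacing of low FPKM values came to between 14600000 and 20500000 fragments in the controls. It was 13700000 in A4 and 11200000 in A6, while in A5 spacings that give 10700000 and 7160000 scored equally well. Every depleted library was thus shallower than every control, so depth and group cannot be told apart. Counting error, taken with the lower depth of A5, was small for the 9 genes. It was largest for Camk4 in A5, at 7.91% for each kilobase of transcript (159.8 fragments). Genes at 0 numbered between 5834 and 6033 in the 3 control libraries and A4, and 7144 in A5 and 6849 in A6. A3 and A4 stood apart in sex-linked genes. Xist was 4.74 FPKM in A3 against 30.9 to 46.7 in the other mice, and the summed Y-linked genes were 5.56 FPKM in A4 against at most 0.16 elsewhere. A4 also had a summed level of 10 interferon-response genes of 409 FPKM, against 79.5 and 76.1 in A5 and A6 and 28.0 to 39.2 in the controls, and every one of the 10 genes was higher in each depleted mouse than in any control. Values of the 9 genes that moved when A4 was left out are therefore given both ways.

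None of the 9 genes changed at an adjusted p under 0.1 in limma, against a background of 4 of the 14385 genes tested (0.0278%), and the smallest adjusted p among the 9 was 0.378. At an unadjusted p under 0.05 there was 1 gene of the 9, Nrgn, which was lower, against 10.5% of all genes tested in either direction and 5.74% in the lower one. In Nrgn and Calm3 all 3 depleted mice were below all 3 controls, which is 22.2% of the 9 genes against 17.6% of all genes in either direction and 9.38% in the lower direction, and none of the 9 lay wholly above the controls, against 8.21% of all genes. The mean was lower after depletion for 5 genes and higher for 4, and the median log2 fold change over the 9 was -0.041, beside -0.0085 over all genes tested. In this bulk tissue, fewer cells of a type and less RNA per cell cannot be told apart.

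**Figure D1:**
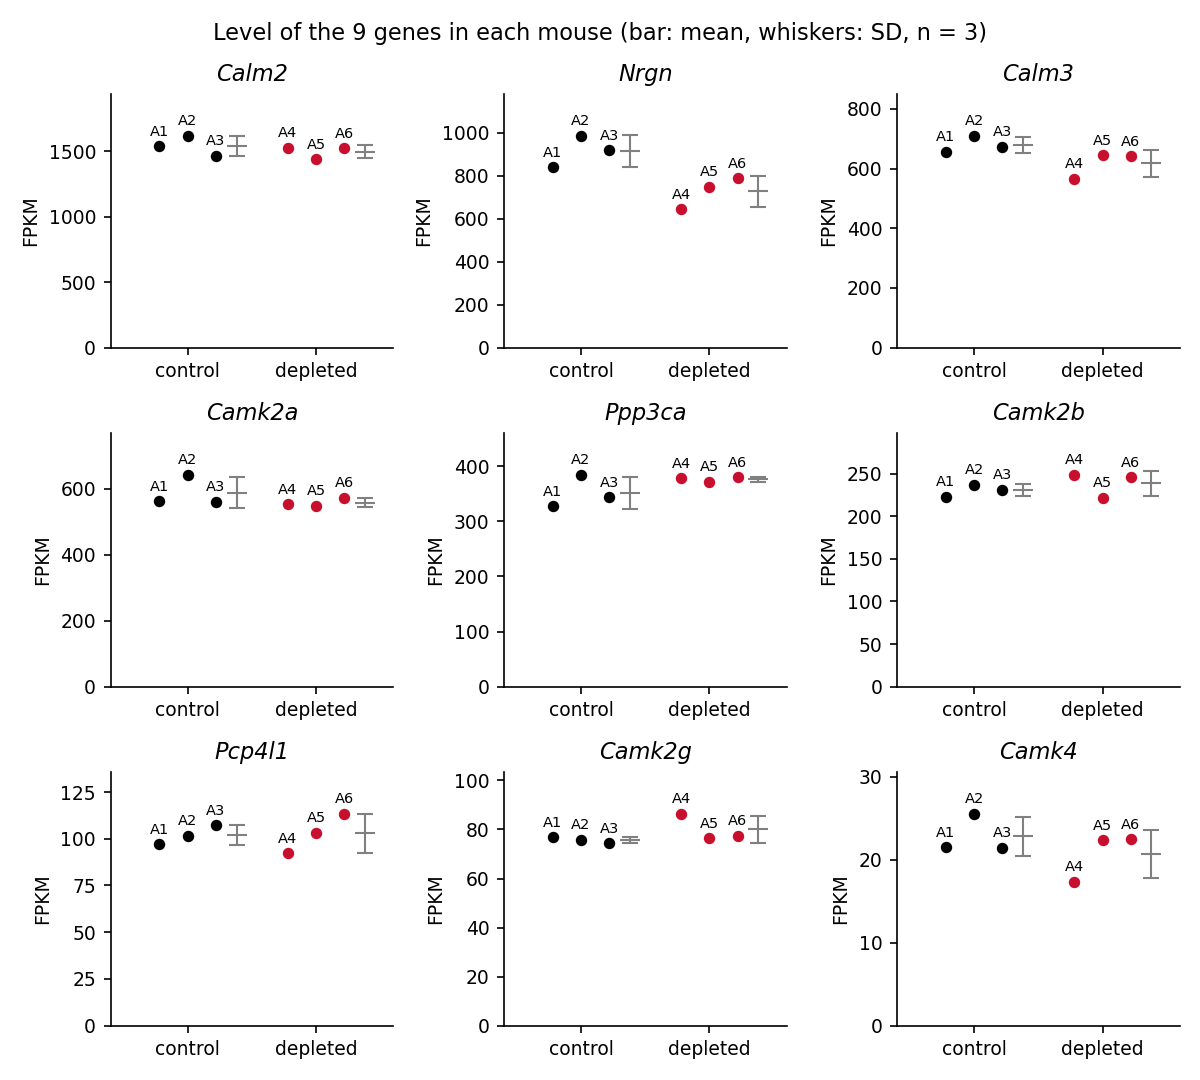
FPKM of the 9 genes in each mouse, control in black and depleted in red, each y axis starting at 0. Points are mice A1 to A6, grey bars are group means and whiskers the SD (n = 3). The red points lie wholly below the black ones for Nrgn and Calm3, and A4 is the lowest mouse for Nrgn, Calm3, Camk4 and Pcp4l1.

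Nrgn was the more abundant of the 2 IQ peptides and ranked 20 by mean FPKM in the table. Its level was 842 FPKM in A1, 987 in A2 and 919 in A3 among the controls, and 645 in A4, 750 in A5 and 788 in A6 among the depleted mice. The groups did not overlap, and the lowest value was that of A4. The mean was 916 ± 72.4 FPKM in controls and 728 ± 74.0 FPKM in depleted mice (SD, n = 3 each). On the log2(FPKM + 1) scale the difference was -0.33 with a standard error of 0.095 (95% interval -0.55 to -0.12), which is 0.795-fold of control. It did not pass the threshold (limma, unadjusted p = 0.00751, adjusted p = 0.378). Without A4 the difference was -0.25 (limma, unadjusted p = 0.0170, adjusted p = 0.293) and the groups still did not overlap, as in 30.2% of all genes without that mouse. Transcripts of Nrgn are rich in GC, at 59.6%, and after a correction of each library for GC content the difference was -0.22 (limma, unadjusted p = 0.0483, adjusted p = 0.560) and the groups overlapped.

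Pcp4l1 was at 97.1 FPKM in A1, 102 in A2 and 107 in A3, and at 92.3 in A4, 103 in A5 and 113 in A6. The lowest and the highest of the 6 values were both in depleted mice. The log2 fold change was 0.0090 with a 95% interval of -0.19 to 0.21 (limma, adjusted p = 0.980), so the interval reaches 0.875-fold and 1.16-fold. Its sign was not stable, being 0.084 without A4 and negative without A1 or without A6.

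Calm2, a calmodulin gene, was the most abundant gene of the set and ranked 5 in the table. It was at 1538 FPKM in A1, 1618 in A2 and 1466 in A3, and at 1528 in A4, 1438 in A5 and 1525 in A6. The groups overlapped, and the log2 fold change was -0.041 with an interval of -0.20 to 0.12 (limma, adjusted p = 0.860). Calm3 was at 656 FPKM in A1, 710 in A2 and 673 in A3, and at 566 in A4, 644 in A5 and 642 in A6. Every depleted mouse was below every control, A5 and A6 by a narrow margin. The mean was 680 ± 27.3 FPKM in controls and 618 ± 44.7 FPKM in depleted mice (SD, n = 3 each). The log2 fold change was -0.14 with a standard error of 0.075 (limma, adjusted p = 0.546). Without A4 it was -0.079, and after the GC correction it was -0.073 with the groups overlapping.

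Relative to the summed FPKM of Calm2 and Calm3, Nrgn stood at 38.4% in A1, 42.4% in A2 and 43.0% in A3, and at 30.8% in A4, 36.0% in A5 and 36.4% in A6. The groups did not overlap in this ratio, which was given no test of its own and which a scaling factor between libraries does not affect. No share over all genes was computed beside it. The ratio was not corrected for GC content, which was 59.6% for Nrgn, 42.8% for Calm2 and 56.9% for Calm3. After the GC correction of each library the log2 fold change was -0.22 for Nrgn and -0.070 for Calm2. Calm3 supplied 29.9% to 31.5% of the sum in controls and 27.0% to 30.9% in depleted mice. The composition plot shows the sums and the ratio.

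**Figure D2:**
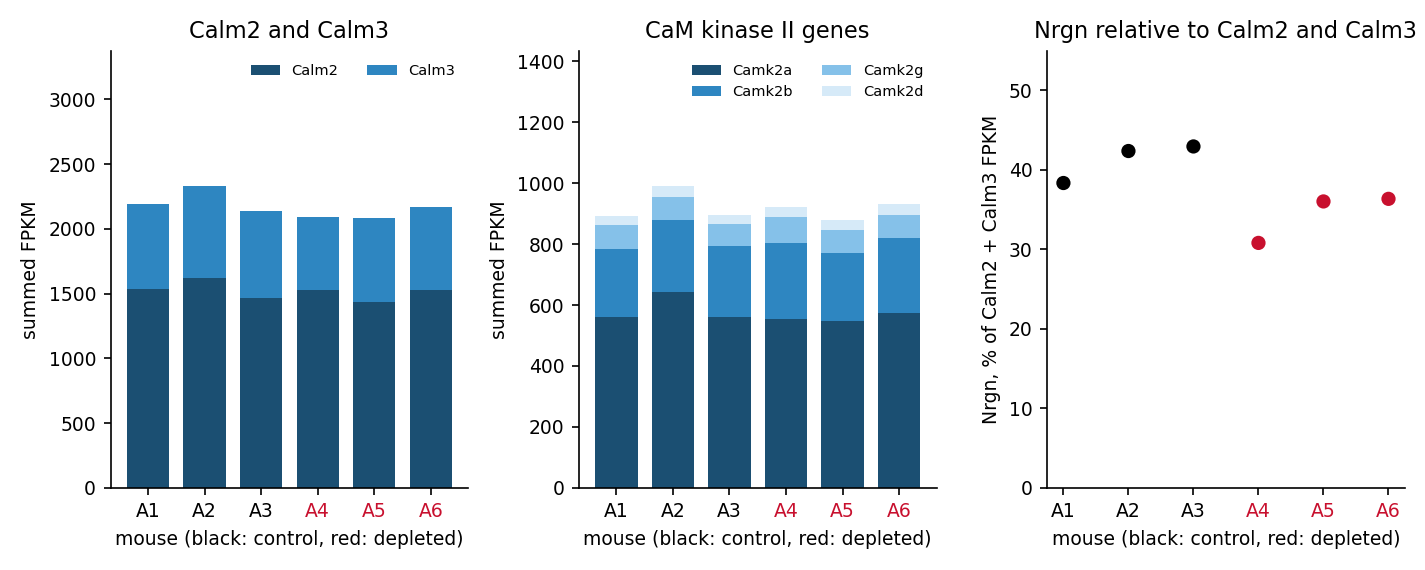
Left and middle, stacked bars of summed FPKM in each mouse for Calm2 and Calm3 and for the 4 CaM kinase II genes. Right, Nrgn as a percentage of the summed FPKM of Calm2 and Calm3, which was 38.4% to 43.0% in controls (black labels A1 to A3) and 30.8% to 36.4% in depleted mice (red labels A4 to A6).

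CaM kinase II is a holoenzyme built mainly of alpha and beta subunits in forebrain neurons. Camk2a, the alpha subunit, was at 562 FPKM in A1, 642 in A2 and 561 in A3, and at 554 in A4, 549 in A5 and 573 in A6. A2 was the highest mouse and the other 5 lay close together. Camk2a had a log2 fold change of -0.073 (interval -0.24 to 0.097, limma, adjusted p = 0.748), and -0.0082 without A2. Camk2b, the beta subunit that tethers the enzyme to actin, was at 223, 237 and 231 FPKM in controls A1 to A3 and 249, 222 and 246 FPKM in depleted A4 to A6. Its groups overlapped, with a log2 fold change of 0.048 (interval -0.11 to 0.21, limma, adjusted p = 0.837), and it was 0.018 without A4.

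Camk2g, the gamma subunit, which has been described as a shuttle of calmodulin to the nucleus, was at 76.8, 75.9 and 74.3 FPKM in controls A1 to A3 and 86.4, 76.4 and 77.5 FPKM in depleted A4 to A6. A5 lay within the control range, A6 just above it, and A4 was the highest mouse. The log2 fold change was 0.078 (interval -0.088 to 0.24, limma, adjusted p = 0.722), and 0.024 without A4.

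The proportions of the subunits differed little between mice. Camk2a made up 62.6% to 64.9% of summed CaM kinase II FPKM in controls and 60.0% to 62.3% in depleted mice, and Camk2b 24.0% to 25.8% and 25.2% to 26.9%. The share of Camk2a was therefore lower in each depleted mouse than in any control, by as little as 62.3% against 62.6%. The share of Camk2d, a subunit gene outside the set, was 3.27% to 3.44% in controls and 3.66% to 3.83% in depleted mice, also without overlap. These shares were not tested and have no value over all genes beside them. The log2 ratio of Camk2a to Camk2b was 1.33, 1.44 and 1.28 in controls A1 to A3 and 1.16, 1.31 and 1.22 in depleted A4 to A6. Its means differed by -0.12 (exact two-sided permutation test, p = 0.2, smallest possible p 0.1), and the groups overlapped.

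Camk4, the nuclear CaM kinase, had the lowest level of the set. It was at 21.5 FPKM in A1, 25.5 in A2 and 21.4 in A3, and at 17.4 in A4, 22.3 in A5 and 22.5 in A6. A4 alone was below the control range. The log2 fold change was -0.14 with a standard error of 0.12 (interval -0.42 to 0.14, limma, adjusted p = 0.705), and it was -0.022 without A4.

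Ppp3ca, the main catalytic subunit of calcineurin in brain, was at 327 FPKM in A1, 384 in A2 and 344 in A3, and at 378 in A4, 372 in A5 and 380 in A6. The depleted mice lay within the control range, above A1 and A3 and below A2. Ppp3ca had a log2 fold change of 0.10 (interval -0.070 to 0.27, limma, adjusted p = 0.657). Without A2 it was 0.17 (limma, unadjusted p = 0.0450, adjusted p = 0.751) and the groups did not overlap, as in 25.9% of all genes without that mouse, and without A1 it was 0.050. Ppp3ca supplied 79.0% to 81.1% of catalytic calcineurin FPKM in controls and 78.3% to 80.6% in depleted mice.

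**Figure D3:**
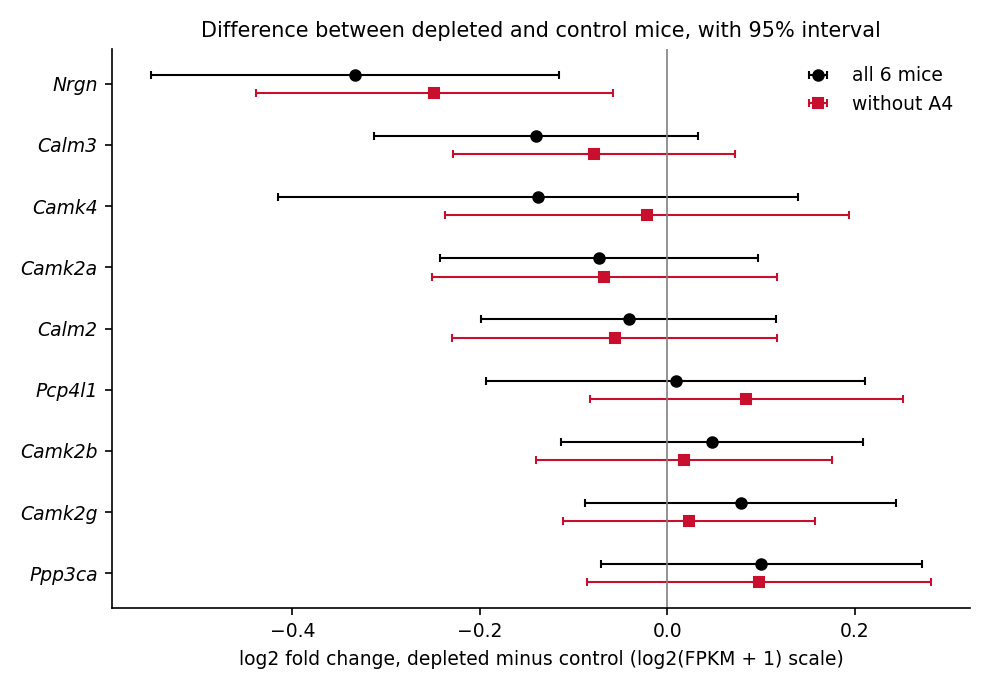
Log2 fold change of the 9 genes, depleted minus control on the log2(FPKM + 1) scale, with 95% intervals from limma. Black circles are the fit over all 6 mice and red squares the fit without A4, and only the intervals of Nrgn exclude 0, at -0.33 (-0.55 to -0.12) with all mice.

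By level, FPKM being a value per length, the order over all mice was Calm2, Nrgn, Calm3, Camk2a, Ppp3ca, Camk2b, Pcp4l1, Camk2g and Camk4. The ranges over the 6 mice overlapped between Nrgn and Calm3 and between Calm3 and Camk2a, and for no other neighbours in this order. Nrgn was nevertheless above Calm3, and Calm3 above Camk2a, in each of the 6 mice. Within the set the level thus spanned from 1438 to 1618 FPKM for Calm2 down to 17.4 to 25.5 FPKM for Camk4.

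The pattern of Nrgn over the 6 mice was compared with that of 6847 other genes whose mean reached 10 FPKM. The highest Pearson correlations of log2(FPKM + 1), given as a description over 6 libraries that include both groups, were with Znrf1 (r = 0.993), an E3 ubiquitin ligase, Sugp2 (r = 0.987), Rims4 (r = 0.985), of the RIM family of presynaptic active-zone proteins, Cdk5r2 (r = 0.982), an activator of Cdk5, and Dbn1 (r = 0.980), which encodes drebrin, an actin-binding protein of dendritic spines. Their log2 fold changes were -0.27 for Znrf1, -0.081 for Sugp2, -0.41 for Rims4, -0.36 for Cdk5r2 and -0.15 for Dbn1. None of the 5 passed the threshold. Since the Nrgn values were lower in each depleted mouse than in any control and the same 6 libraries chose the 5 genes, their direction follows from the choice.

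The wider pathway was described with 7 fixed lists of 100 genes, of which 99 were in the table and 94 were tested. None was called in limma at an adjusted p under 0.1. At an unadjusted p under 0.05 there were 7 genes (7.45%), 5 lower and 2 higher, beside 10.5% of all genes. The groups did not overlap for 14 genes (14.9%), 9 lower and 5 higher, beside 17.6% of all genes. The median log2 fold change of the 94 genes was -0.0061.

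Among the other genes for IQ peptides and calmodulin-like proteins, 4 of 5 were tested, the median log2 fold change was -0.13 and the groups overlapped in each. This median of 4 genes was not stable, being 0.041 without A4 and -0.30 without A6. Calml4, a calmodulin-like gene of very low level, ranged from 2.50 to 4.42 FPKM in controls and from 0.36 to 3.16 in depleted mice. Its log2 fold change of -0.71 had an interval of -1.57 to 0.14. Pcp4 was at 579, 700 and 684 FPKM in controls A1 to A3 and 452, 604 and 764 FPKM in depleted A4 to A6. A4 was the lowest and A6 the highest mouse, unlike Nrgn, in which A6 was below every control.

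For the 18 other CaM kinases and kinase kinases the median was 0.043 (0.0098 without A4). Of the 18, 1 gene was lower and 1 higher in every depleted mouse, beside 9.38% and 8.21% of all genes tested. Camkk1 and Camkk2, the kinases that activate Camk4, marked the ends of this list. Camkk2 was at 58.2, 66.0 and 59.0 FPKM in controls A1 to A3 and 31.1, 59.3 and 57.6 FPKM in depleted A4 to A6. Camkk1 was at 49.3, 51.6 and 47.7 FPKM in controls A1 to A3 and 75.7, 55.1 and 49.4 FPKM in depleted A4 to A6. The departure lay in A4 for both, low for Camkk2 and high for Camkk1, and their log2 fold changes were -0.36 (limma, adjusted p = 0.592) and 0.25 (limma, adjusted p = 0.569).

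CaM kinase II inhibitors and anchoring partners numbered 10 tested of 11, with a median of -0.017. Shank3, a scaffold of the postsynaptic density, was at 32.6, 34.2 and 31.6 FPKM in controls A1 to A3 and 20.8, 30.7 and 26.2 FPKM in depleted A4 to A6. All depleted mice were below the controls, with a log2 fold change of -0.35 (limma, unadjusted p = 0.0277, adjusted p = 0.432). Dlg4, the gene of PSD-95, was the only other gene of the list without overlap and is named after its values were seen. It was at 212, 228 and 222 FPKM in controls A1 to A3 and 154, 194 and 208 FPKM in depleted A4 to A6, with a log2 fold change of -0.26 (limma, unadjusted p = 0.0445, adjusted p = 0.464). At the other end Tiam1, an exchange factor for Rac, had a log2 fold change of 0.095.

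Other calcineurin subunits and regulators (9 tested of 10) had a median of -0.023 (0.037 without A4 and -0.043 without A6). Ppp3cc, a minor catalytic subunit, was at 8.88, 9.32 and 10.2 FPKM in controls A1 to A3 and 11.2, 11.3 and 11.1 FPKM in depleted A4 to A6, and all depleted mice were above the controls. Its log2 fold change was 0.22 (limma, unadjusted p = 0.0409, adjusted p = 0.457). Akap5, which anchors calcineurin at the synapse, was at the low end with a log2 fold change of -0.17.

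The 20 calmodulin-regulated enzymes had a median of -0.0050 (-0.037 without A3). Rasgrf1, a calmodulin-dependent Ras exchange factor, was at 99.3, 98.8 and 98.2 FPKM in controls A1 to A3 and 137, 108 and 110 FPKM in depleted A4 to A6. The depleted mice were all above the controls, with a log2 fold change of 0.25 (limma, unadjusted p = 0.0280, adjusted p = 0.432). Pde1c, a calmodulin-dependent phosphodiesterase, had a log2 fold change of -0.27 at a level of at most 2.56 FPKM in any mouse.

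Calcium-responsive transcription factors (17 tested of 18) had a median of -0.0083 (-0.048 without A4 and 0.048 without A6). Crtc1, the CREB coactivator that calcineurin releases to the nucleus, was at 38.1, 37.3 and 38.9 FPKM in controls A1 to A3 and 32.0, 35.5 and 29.6 FPKM in depleted A4 to A6. The groups did not overlap, and the log2 fold change was -0.23 (limma, unadjusted p = 0.0243, adjusted p = 0.418). Mef2c, at the high end with 0.26, was at 132 FPKM in A4 and at 75.8 to 94.8 FPKM in the other 5 mice.

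EF-hand neuronal calcium sensors (16 tested of 18) had a median of 0.015 (-0.036 without A6). Ncald, which encodes neurocalcin delta, was at 174, 188 and 170 FPKM in controls A1 to A3 and 129, 156 and 155 FPKM in depleted A4 to A6. The groups did not overlap and its log2 fold change was -0.27 (limma, unadjusted p = 0.0145, adjusted p = 0.393). Necab2 had the highest value of the list, 0.17, with 60.0 FPKM in A4 against 40.2 to 44.6 FPKM elsewhere.

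**Figure D4:**
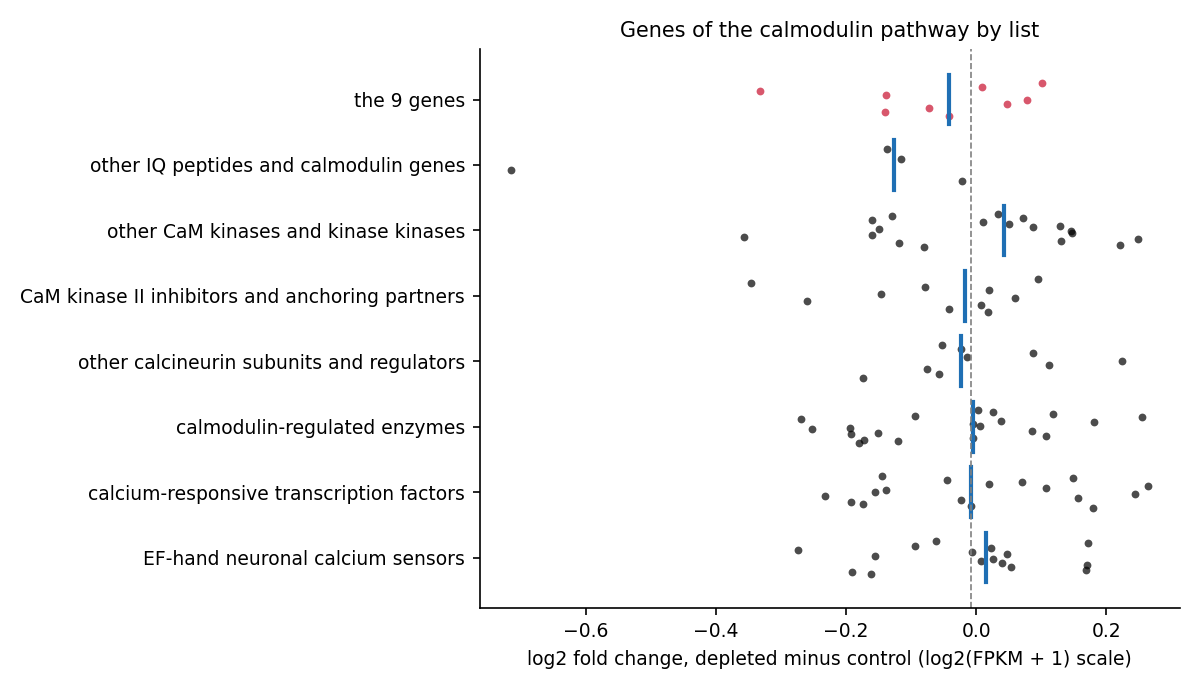
Log2 fold change (depleted minus control, log2(FPKM + 1) scale) of each tested gene of the 9-gene set (red) and of the 7 wider lists (black). Blue bars are list medians and the dashed line is the median of all genes tested, -0.0085. The medians of the 7 wider lists run from -0.13, which is 0.041 without A4 and -0.30 without A6, to 0.043.

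The tissue was checked against fixed marker lists, in none of which a gene stood at 0 in every mouse. The excitatory neurons in which Nrgn is mainly expressed had a summed marker level of 875 to 1029 FPKM in controls and 974 to 1030 in depleted mice and a median log2 fold change of 0.078 over 10 genes. Slc17a7, the vesicular glutamate transporter of these cells, was at 325, 383 and 354 FPKM in controls A1 to A3 and 357, 383 and 343 FPKM in depleted A4 to A6. Its groups overlapped, with a log2 fold change of 0.031 (interval -0.16 to 0.22, limma, adjusted p = 0.915).

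Within each library, log2(FPKM + 1) of Nrgn exceeded the mean of the excitatory markers by 3.96, 3.94 and 4.06 in controls A1 to A3 and by 3.41, 3.67 and 3.73 in depleted A4 to A6. The means were 3.99 ± 0.061 and 3.60 ± 0.17 (SD, n = 3 each) and differed by -0.38 (exact two-sided permutation test, p = 0.1, which is as low as this design allows). Without A4 the means differed by -0.29 (exact two-sided permutation test, p = 0.1, again the lowest possible). With the general neuron list in place of the excitatory one the difference was -0.31. None of these differences was corrected for GC content, and no share over all genes was computed beside them. After the GC correction of each library the log2 fold change of Nrgn alone was -0.22 and its groups overlapped. Of the 10 excitatory markers 7 had a higher mean in depleted mice, which adds to the difference from that list.

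The summed levels of the other marker lists were set beside these values. Markers of upper layers and layer 4 summed to 207 to 219 FPKM in controls and 170 to 195 in depleted mice, with 3 of 8 genes (Scnn1a, Lamp5 and Rspo1) lower in every depleted mouse. Over all genes tested the share was 9.38%, and 8.21% in the higher direction, which holds for each such count in this paragraph. Most of the difference between the upper-layer sums lay in Lamp5, at 90.9 to 99.5 FPKM in controls and 54.7 to 80.3 in depleted mice. The groups overlapped in the rest of that list, in which 1 gene had a higher mean in depleted mice. Oligodendrocyte markers summed to 3010 to 3282 FPKM in controls and 2636 to 2731 in depleted mice, with a lower mean in 10 of 10 genes and no overlap in 5 of them. Those of their precursors summed to 94.4 to 105 and 68.9 to 85.7 FPKM, with a lower mean in 7 of 8 genes and no overlap in 4 of them. Deep-layer markers overlapped in all 10 genes, at 724 to 839 and 570 to 909 FPKM. Most of this sum was Pcp4, also a gene of the wider pathway lists, at 579 to 700 and 452 to 764 FPKM. Microglial markers summed to 130 to 156 FPKM in controls and 142 to 209 in depleted mice, with 3 of 10 genes higher and 2 lower in every depleted mouse. Choroid plexus markers summed to 241 to 416 FPKM in controls and 122 to 137 in depleted mice. The sums for general neurons, inhibitory neurons, astrocytes, endothelial cells, thalamus and hippocampus overlapped between the groups. Some single genes of these lists did not overlap, with 2 of 10 neuron, 2 of 10 astrocyte and 1 of 8 endothelial markers higher in every depleted mouse, and 2 of 10 astrocyte, 1 of 10 inhibitory neuron and 1 of 10 thalamus markers lower. Gfap, the intermediate filament of reactive astrocytes, named after its values were seen, was at 88.3, 64.5 and 84.2 FPKM in controls A1 to A3 and 300.3, 109 and 120 FPKM in depleted A4 to A6, with a log2 fold change of 1.00 (limma, adjusted p = 0.396). The sums also overlapped for striatum, where Nrgn is also high, at 405 to 457 and 375 to 474 FPKM. The part of these differences, and of the interferon-response genes, in the lower values of Nrgn and Calm3 was not tested.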

How the data were processed

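The data are RNA-seq values of brain cortex from 3 control and 3 depleted mice. Per the study's methods, RNA was extracted with Trizol and poly(A)-selected TruSeq libraries were sequenced from both ends with reads of 75 bases. TopHat was used for alignment and RSEM for quantification over known transcripts. The deposited table holds FPKM for each gene in each mouse, to which the authors had applied scaling by the trimmed mean of M-values (TMM). The submitters' processing notes name mm9 as the build and also DESeq, and tool versions are not given in the sources used here.

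A pseudocount of 1 was added before taking log2, which understates the change of low genes. Genes were kept where their mean reached 0.5 FPKM (14385 genes) and fitted in limma 3.58.1 under R 4.3.3, by lmFit and by eBayes with a trend. Benjamini-Hochberg adjustment covered all of them, the threshold was an adjusted p of 0.1, and no covariate was used. Single values formed within a library were compared with exact two-sided permutation tests. The fit was tested on simulated data. The labels give no litter or batch, so p-values measure only the spread between these 6 samples.

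The 9 genes, the pathway lists and the marker lists were chosen with earlier results of these data known. Genes named beyond the 9 were both extremes in log2 fold change of each pathway list, Slc17a7 and the 5 genes most like Nrgn. Pcp4 was added for its sequence, and Dlg4, Gfap, Scnn1a, Lamp5 and Rspo1 after their values were seen. Some genes that this rule would name are not reported here. Sequences and coordinates come from GENCODE M21 on GRCm38, to which 23026 of the 23366 symbols were matched, and none was converted from or to mm9. GC content was available for 99.2% of the genes tested.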

Additional observations from a re-analysis of the deposited data

How the results depend on the processing

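The comparison was repeated with other pseudocounts, filters, scalings, variance models, weights and thresholds, with a GC correction and without each mouse in turn. None of the 9 genes was called under any of these settings. None of the pathway genes was called under the other pseudocount, filters and scalings, the GC correction or without single mice, the settings run for them. The log2 fold change of Nrgn stayed negative under all 17 alternatives, between -0.39 and -0.22, with limma adjusted p between 0.246 and 0.892. Signs turned in 3 cases. Calm2 was at 0.033 under quantile normalization, and Pcp4l1 was at -0.025 without A1 and -0.062 without A6, its range without single mice being -0.062 to 0.084. The number of the 9 genes without overlap was 4 under quantile normalization (Nrgn, Calm3 and Camk2a lower, Camk2g higher), where 18% of all genes did not overlap. It was between 2 and 4 without single mice, beside 23.6% to 32.7% of all genes. The 4 occurred without A5 (Nrgn and Calm3 lower, Camk2b and Camk2g higher), where 32.7% of all genes did not overlap. After the GC correction the number was again 2, beside 16.2% of all genes, but these were Calm2 lower and Camk2g higher. The cause was not tested. Leaving out A3 and A4 together, chosen after the data were seen because of their sex-linked genes, gave -0.24 for Nrgn (limma, adjusted p = 0.517). Without A4 the fit called 22 of all genes, against 4 with it. No paired analysis was possible because the groups share no replicate numbers. With 3 mice a group, exact tests cannot reach a p below 0.1, and the ambiguous depth of A5 limits what can be said of counting error there.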
